A study of Homo sapiens with 6 samples.

Results

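The endoplasmic reticulum chaperones and unfolded protein response genes are described here in MCF10A cells after silencing of PDCD4. They are 10 genes chosen by name: HSPA5, HSP90B1, CALR, CANX, PDIA3, PDIA4, PDIA6, DNAJB9, XBP1 and HERPUD1, out of 34486 genes to which transcripts were matched. All 10 were among the 13047 genes that passed the expression filter and were tested. MCF10A is an immortalised, non-tumorigenic human breast epithelial line, grown here in medium with horse serum, EGF, insulin, hydrocortisone and cholera toxin. All 6 libraries came from otherwise wild-type cells that received 10 nM siRNA for 48 h, 3 of them a pool against PDCD4 (siPDCD4) and 3 a control siRNA (siCT). Total RNA was sequenced as paired reads of 75 bases. No label states that replicates were cultured separately, so p-values reflect only how these libraries vary, possibly for technical reasons. PDCD4 is an RNA-binding protein that inhibits the helicase eIF4A when in the cytoplasm. In MCF10A cells the authors found PDCD4 mainly in the nucleus, and eIF4A was not among the protein partners they identified. The comparison asks whether the mRNAs of the folding machinery differ once PDCD4 is depleted.

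Secretory and membrane proteins fold in the endoplasmic reticulum with the help of HSPA5 (BiP) and HSP90B1, of the sugar-binding chaperones CALR and CANX, and of the PDI family, which forms and rearranges disulphide bonds. When unfolded proteins pile up, the sensors IRE1, PERK and ATF6 start the unfolded protein response (UPR). IRE1 cuts a short intron out of XBP1 mRNA, which changes the reading frame and yields an active transcription factor. Together with cleaved ATF6, spliced XBP1 raises transcription of chaperones through the ER stress response element (ERSE), and DNAJB9 and HERPUD1 belong to the genes that react strongly to such stress. Professional secretory cells hold high levels of this machinery, whereas other cells keep a basal supply.

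The XBP1 intron is shown because its removal separates the spliced from the unspliced form. It has 26 bases, a number that leaves 2 when divided by 3, and lies on the minus strand at chr22:28796128-28796153 (GRCh38), inside the coding sequence. The mRNA around it, with 30 bases on each side, is given 5′ to 3′ from the GENCODE release 44 transcripts XBP1-201 and XBP1-202. Capitals mark the intron in the first and the 6 bases at the junction in the second, with borders as annotated. The marked intron begins with GCAGCA and the same 6 bases follow it, so borders placed further downstream give the same spliced mRNA. The position and capitals therefore need not mark the exact sites that IRE1 cuts.
XBP1 unspliced: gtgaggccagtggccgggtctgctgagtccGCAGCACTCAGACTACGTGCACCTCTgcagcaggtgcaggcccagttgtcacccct
XBP1 spliced: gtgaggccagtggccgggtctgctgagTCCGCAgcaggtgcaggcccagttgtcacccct

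Most of the genes whose promoters were searched carried an ER stress response element before a start site. In the 250 bases before the start sites listed by RefSeq (GRCh38.p14), which cover 9 of the 10 genes but not PDIA3, the ERSE, written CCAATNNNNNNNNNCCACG and searched on both strands, was found in 6 genes, and its relative ERSE-II, ATTGGNCCACG, in HERPUD1. Among all 35116 promoters of the same length 0.074% held an ERSE and 0.0513% an ERSE-II. Counted by gene, the shares were 0.0916% and 0.0659%. Of the 70 genes of the pathway lists below that the RefSeq table covers, 2 held the first and 2 the second. The 8 bases of the UPR element, TGACGTGG, were in none of the 9 genes. They were in 9 of the 70 pathway genes (DNAJC10, HYOU1, KDELR3, SEC62, SSR3, SSR4, TXNDC5, UBE2J1 and VCP), in 0.612% of all promoters and in 0.780% of all genes. The ERSE was originally defined on promoters of this very family, so its presence is no independent finding. DNAJB9 and PDIA4 had no match, which says only that these letters are not in the searched window. The matches are shown with 5 bases on each side, read along the gene, with the element in capitals. In the second HSP90B1 match and in CALR the element stands on the opposite strand. The matches of HSP90B1, CANX and PDIA6 lie inside the GENCODE gene, which starts further upstream, and the others before it.
HSPA5, chr9:125241386-125241414: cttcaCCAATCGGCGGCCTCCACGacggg
HSP90B1, chr12:103930211-103930239: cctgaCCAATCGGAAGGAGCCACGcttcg
HSP90B1, chr12:103930316-103930344: gggtgCGTGGTGCGGCGCGATTGGtgggt
CALR, chr19:12938379-12938407: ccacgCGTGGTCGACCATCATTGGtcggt
CANX, chr5:179698773-179698801: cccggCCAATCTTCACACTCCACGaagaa
PDIA6, chr2:10812848-10812876: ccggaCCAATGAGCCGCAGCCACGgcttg
XBP1, chr22:28800598-28800626: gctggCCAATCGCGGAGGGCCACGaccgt
HERPUD1, chr16:56932020-56932040: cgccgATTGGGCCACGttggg

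The libraries held between 13410441 and 21828931 estimated counts, the fewest in siCT replicate 3, which also had the lowest share of counts on protein-coding genes (76.2%, against up to 86.4% in siCT replicate 1). The 10 genes took between 0.252% and 0.285% of the counts. PDCD4 stood at 90.5, 89.1 and 61.1 CPM in siCT and at 9.16, 7.44 and 8.63 CPM in siPDCD4, with a log2 fold change of -3.25 ± 0.17 (SE) and an adjusted p of 2.15e-05 in edgeR, where CPM are counts scaled to a common library size by TMM factors and corrected for transcript length. All 6 basal mammary and all 4 general epithelial markers were above 1 TPM (a level per length, scaled to the same sum in each library) in every library. Of the immune markers reported, CD68 was above 1 TPM (6.19 to 8.43), while PTPRC was at most 0.0600 TPM and CD3E was listed at 0. The 3 endothelial markers stayed under 1 TPM, as did all 4 fibroblast markers but COL1A1 (0.673 to 1.91). The 4 markers of professional secretory cells summed to at most 0.114 TPM. In RNA of a whole culture, fewer cells that express a gene and less RNA per cell cannot be told apart.

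Per length, and with transcripts matched by identifier, the 10 genes covered a wide range of levels in the same order in both groups. CALR was highest in this count, at 413 ± 24.8 TPM in siCT and 397 ± 8.98 TPM in siPDCD4 (SD, n = 3), followed by HSP90B1 at 303 ± 12.6 and 284 ± 9.32 TPM. PDIA3, the disulphide isomerase that works with CALR and CANX, stood at 248 ± 20.6 and 252 ± 7.16 TPM. Further PDI family members came next, PDIA6 at 143 ± 14 TPM and PDIA4 at 78.8 ± 5.57 TPM in siCT. HSPA5, the chaperone that also holds the UPR sensors inactive, was lower than these at 46.7 ± 2.82 TPM in siCT and 47.5 ± 2.95 TPM in siPDCD4. XBP1 at 39.4 ± 2.05 and HERPUD1 at 22.2 ± 1.76 TPM in siCT came below it, then CANX at 11.8 ± 2.82 TPM and, lowest, DNAJB9 at 3.78 ± 0.594 TPM. For each pair of neighbours in this order the ranges of the 3 libraries did not overlap in either group.

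**Figure D1:**
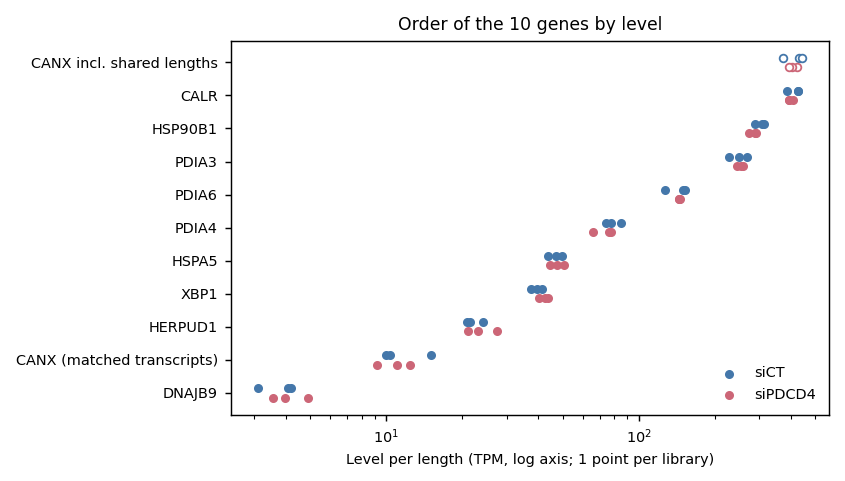
Level per length in TPM (x axis, log scale) of each gene (y axis) in the siCT and siPDCD4 libraries, 1 point per library. Filled points use transcripts matched by identifier and open points add the transcripts of CANX length. The genes run from CALR at 385 to 428 TPM down to DNAJB9 at 3.10 to 4.91 TPM, with the groups side by side.

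The place of CANX in the order depends on how its transcripts are counted. The transcripts matched by identifier held only 591 to 816 counts per library, and the entry of the coding transcript CANX-201, of 4915 bases, was listed at 0 in all 6 libraries. A run of 4 entries whose identifiers were not in the annotation, with lengths of 2232, 4207, 4915 and 1876 bases, shared all 4 lengths with CANX transcripts. No other gene shared more than 1 of these lengths. These entries held 15808 to 30902 counts, between 95.7% and 97.4% of both together. Counted with CANX they gave 416 ± 37.1 TPM in siCT and 407 ± 15.6 TPM in siPDCD4 (SD, n = 3), with higher means than CALR and ranges that overlapped it in both groups. The match rests on lengths alone, since the deposited tables hold no sequence, so CANX is counted by identifier unless said otherwise, and the other count is given beside it. That count was added after seeing the data.

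None of the 10 genes passed an FDR of 5% in edgeR, where 0.429% of all genes tested did so. At an unadjusted p under 0.05 the count was 0 as well, against 8.62% of all genes. DESeq2 called 0 of the 10 (1.35% of all genes, and 0 at an unadjusted p under 0.05), and limma-voom called 0 (0.412% of all genes, and 0 at an unadjusted p under 0.05). Log2 fold changes of siPDCD4 against siCT ran from -0.13 for CANX (-0.05 with the transcripts of shared length) to 0.11 for DNAJB9, 4 above 0 and 6 below, with a median of -0.0050. The median over all 13047 genes was -0.0055. A p that misses the threshold does not show equal levels, so the 95% interval of each change is given. In 8 of the 10 genes, all but CANX and DNAJB9, it lay within 0.39 on the log2 scale in either direction. This limit was not set in advance and lies just above the upper bound of HERPUD1 (0.387), so the count depends on it. With the transcripts of shared length CANX had an interval from -0.24 to 0.14, which made it 9 of 10.

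**Figure D2:**
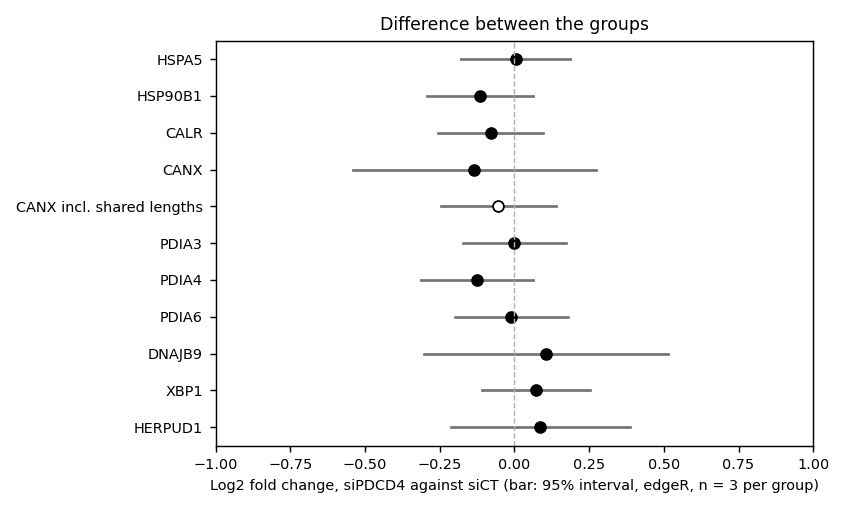
The x axis gives the log2 fold change from siCT to siPDCD4 and the y axis the gene, with the 95% interval from edgeR as a bar (n = 3 libraries per group). The open circle counts CANX with the transcripts of shared length. All intervals cross 0, the widest being those of CANX (-0.54 to 0.27) and DNAJB9 (-0.30 to 0.51).

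Of the main chaperones, HSPA5 had nearly the same mean in both groups and HSP90B1 a slightly lower mean in siPDCD4, neither past the test. HSPA5 (chromosome 9, 125234853 to 125241382, GRCh38) stood at 136, 144 and 147 CPM in siCT replicates 1, 2 and 3 and at 133, 151 and 144 CPM in siPDCD4. The siPDCD4 libraries lay on both sides of all siCT libraries. Its log2 fold change was 0.0043 ± 0.083 (SE), or 1.00-fold with a 95% interval from 0.883 to 1.14 and an adjusted p of 0.996 in edgeR. HSP90B1 (chromosome 12, 103930107 to 103953931), the HSP90 of this compartment, stood at 898, 826 and 833 CPM in siCT and at 794, 756 and 811 CPM in siPDCD4. Every siPDCD4 library was thus below every siCT library, a separation in this direction that 7.14% of all genes showed. The difference was small, at -0.12 ± 0.08 on the log2 scale or 0.923-fold (95% interval 0.816 to 1.04, adjusted p = 0.827 in edgeR).

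The lectin chaperones hold glycoproteins until they are folded. CALR (chromosome 19, 12938578 to 12944489) stood at 825, 775 and 747 CPM in siCT and at 754, 729 and 737 CPM in siPDCD4. The groups overlapped by 1 library, and the change was 0.946-fold (95% interval 0.838 to 1.07, adjusted p = 0.912 in edgeR). CANX (chromosome 5, 179678628 to 179731641), the membrane-bound partner of CALR, stood at 40.1, 38.9 and 60.8 CPM in siCT and at 35.5, 42.8 and 48.5 CPM in siPDCD4 by identifier. Here siCT replicate 3 was the highest library, and without it the log2 fold change turned from -0.13 to 0.10. With the transcripts of shared length CANX stood at 1535, 1479 and 1338 CPM in siCT and at 1447, 1382 and 1365 CPM in siPDCD4. In these values siCT replicate 3 was the lowest library, and the change was -0.05 ± 0.09 on the log2 scale (SE, adjusted p = 0.965 in edgeR), and it stayed below 0 whichever of the 6 libraries was dropped.

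The disulphide isomerases differed little as well. PDIA3 (chromosome 15, 43746394 to 43773279) stood at 406, 411 and 373 CPM in siCT and at 404, 398 and 388 CPM in siPDCD4, with the siPDCD4 libraries inside the range of siCT. Both means were 396 CPM, with a 95% interval of the fold change from 0.887 to 1.13. PDIA4 (chromosome 7, 149003062 to 149028662) stood at 219, 225 and 211.2 CPM in siCT and at 211.2, 208 and 181 CPM in siPDCD4. It was the other gene of the 10 with every siPDCD4 library below every siCT library, although siPDCD4 replicate 1 and siCT replicate 3 were almost equal. Its change was -0.13 ± 0.09 on the log2 scale, or 0.917-fold (95% interval 0.805 to 1.04, adjusted p = 0.815 in edgeR). PDIA6 (chromosome 2, 10783391 to 10837977) stood at 366, 337 and 306 CPM in siCT and at 331, 335 and 336 CPM in siPDCD4. Its siPDCD4 libraries lay close together inside the spread of siCT, and the fold change had a 95% interval from 0.872 to 1.13.

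So 2 of the 10 genes separated the groups, both lower in siPDCD4, where 13.9% of all genes did so in either direction. DNAJB9, HERPUD1 and XBP1 had log2 fold changes above 0, as did HSPA5 (0.0043), none past the test. The other 6, among them chaperones that the UPR also raises, were below 0. DNAJB9 (chromosome 7, 108569867 to 108574850), a co-chaperone that delivers substrates to HSPA5, stood at 9.99, 9.59 and 7.64 CPM in siCT and at 8.32, 9.36 and 11.7 CPM in siPDCD4. Only siPDCD4 replicate 3 exceeded the siCT libraries, and without it the log2 fold change was -0.03 in place of 0.11 ± 0.19. The 95% interval from 0.810 to 1.43-fold was the widest upward of the 10. HERPUD1 (chromosome 16, 56932142 to 56944864), which organises the membrane complex of protein degradation, stood at 26.1, 23.6 and 29.4 CPM in siCT and at 26.9, 24.5 and 32.3 CPM in siPDCD4. Again siPDCD4 replicate 3 was highest, and without it the log2 fold change went from 0.09 ± 0.14 to -0.02. XBP1 (chromosome 22, 28794555 to 28800597) stood at 74.3, 73.4 and 71.0 CPM in siCT and at 78.9, 77.3 and 73.9 CPM in siPDCD4. The groups overlapped through siPDCD4 replicate 3 alone, and the change was 1.05-fold (95% interval 0.928 to 1.19, adjusted p = 0.930 in edgeR).

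**Figure D3:**
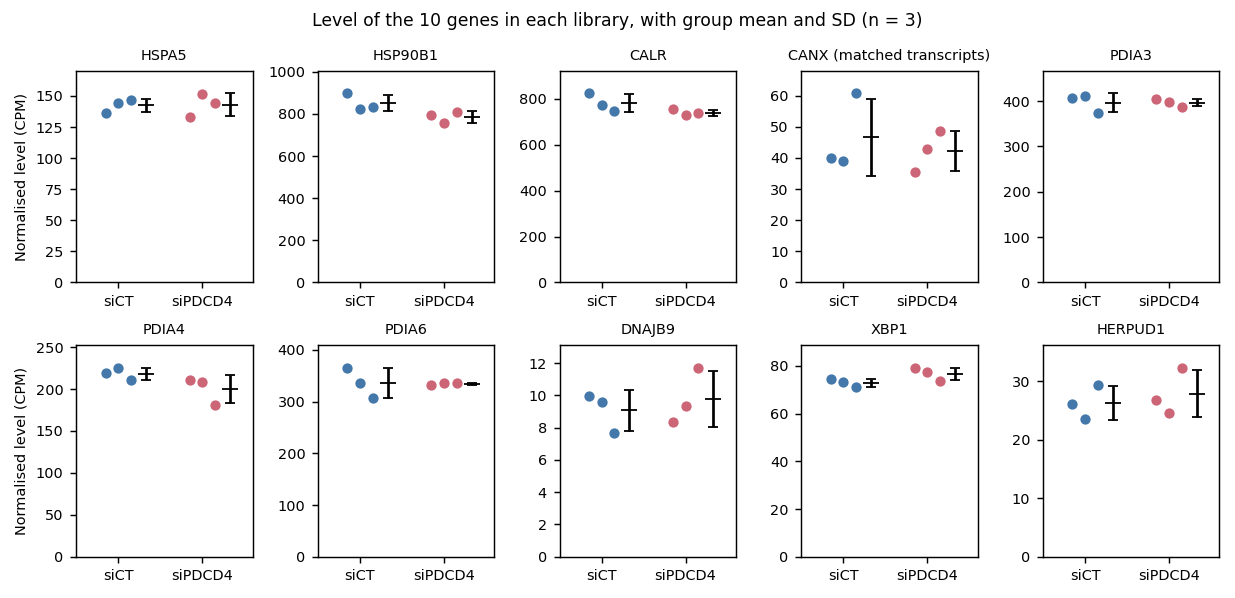
Each panel shows 1 gene, with its CPM on the y axis (starting at 0) in the 3 siCT and 3 siPDCD4 libraries (x axis, replicates 1 to 3 from left to right), with the mean and SD of the group in black. Only in HSP90B1 and PDIA4 do the siPDCD4 points all lie below the siCT points.

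The libraries themselves did not sort by group when the 10 genes were averaged. Each gene was centred on its own mean of log2 CPM over the 6 libraries and the 10 values were averaged. This gave 0.032, -0.012 and 0.0084 in siCT replicates 1, 2 and 3 and -0.051, -0.020 and 0.043 in siPDCD4 replicates 1, 2 and 3. Both the lowest and the highest library were siPDCD4. This order depends on CANX. With its transcripts of shared length the averages were 0.056, 0.010 and -0.047 in siCT and -0.019, -0.021 and 0.022 in siPDCD4, and both the highest and the lowest library were siCT. In siPDCD4 replicate 3, DNAJB9 and HERPUD1 were 0.31 and 0.26 above their own means while PDIA4 was 0.20 below (-0.20). The 3 genes nearest to the average profile with CANX by identifier, by root mean square difference over 6 libraries among 9022 other genes with at least 10 CPM, were LGR4, ATXN7L3B and DICER1, at 0.021, 0.023 and 0.023 on the log2 scale. With CANX counted by shared length they were instead CD99L2, NFRKB and DHRS3, at 0.0095, 0.017 and 0.017. LGR4, a receptor for R-spondins, stood at 50.2 ± 0.422 CPM in siCT and 49.5 ± 1.87 CPM in siPDCD4.

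The spliced form of XBP1 bears on UPR signalling more directly than the level of the gene. The spliced share, meaning the percentage of XBP1 counts that Salmon gave to XBP1-202, was 1.43%, 3.93% and 18.1% in siCT replicates 1, 2 and 3. It was 19.3%, 43.8% and 11.0% in siPDCD4 replicates 1, 2 and 3. The groups overlapped, since siCT replicate 3 was above siPDCD4 replicate 3. Behind these shares stood 22, 51.0 and 158 spliced counts of 1538, 1298 and 872 in siCT, and 272, 486 and 130 of 1410, 1109 and 1175 in siPDCD4. The siCT mean of 7.82% ± 8.98 and the siPDCD4 mean of 24.7% ± 17.1 (SD, n = 3) gave a difference of 16.9 percentage points with p = 0.2 in an exact two-sided permutation test, where 3 against 3 libraries cannot go below 0.1. Without siPDCD4 replicate 2 the difference was 7.36 percentage points, and without siCT replicate 3, the library of lowest depth, it was 22.1. The share is an estimate by Salmon, in which reads outside the intron cannot tell the forms apart, and counts at the junction were not analysed here. In siPDCD4 replicate 2, the library with the highest share, HSPA5 at 151 CPM was also at its highest of the 6 libraries, and DNAJB9 stood at 9.36 CPM. In siPDCD4 replicate 1, with the next highest share of 19.3%, HSPA5 at 133 CPM was at its lowest. In order of share, the remaining libraries rose from 136 CPM in siCT replicate 1 to 151 CPM in siPDCD4 replicate 2. Between them came siCT replicate 2 (144.1 CPM), siPDCD4 replicate 3 (144.2 CPM) and siCT replicate 3 (147 CPM). Whether the level of HSPA5 follows the share was not tested. DNAJB9 was highest in siPDCD4 replicate 3, with a share of 11.0%.

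**Figure D4:**
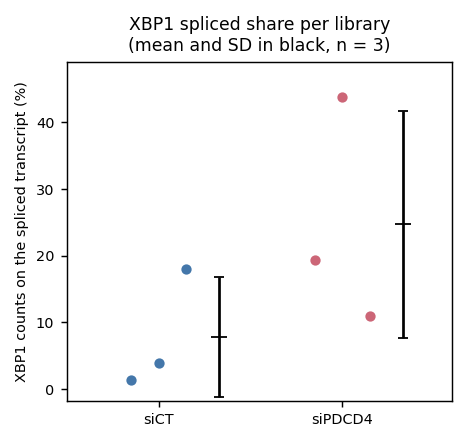
Percentage of XBP1 counts on the spliced transcript (y axis) by group (x axis, 1 point per library, replicates 1 to 3 from left to right), with the mean and SD of the group in black. The siCT points run from 1.43% to 18.1% and the siPDCD4 points from 11.0% to 43.8%, so the groups overlap.

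The members also differed in how many transcripts carried their counts. In CALR, PDIA6 and DNAJB9 a single coding transcript held at least 97.4% of the counts in every library, and HSP90B1-201 held at least 90.7%. HSPA5 was split evenly between the coding transcripts HSPA5-201, at 46.4% ± 4.72, and HSPA5-204, at 45.4% ± 4.03 in siCT (SD, n = 3). In PDIA3 most counts, 60.0% ± 0.629 in siCT and 61.9% ± 1.62 in siPDCD4, went to PDIA3-225, which is annotated as a target of nonsense-mediated decay. Coding transcripts held 21.3% to 27.8% of the PDIA3 counts. This split is an estimate by Salmon over 33 listed transcripts, so it does not show how much PDIA3 mRNA is a target of decay. The split varied widely in XBP1, with XBP1-201 between 46.5% and 87.8% over the libraries, and in HERPUD1, with HERPUD1-201 between 28.6% and 64.9%. Pseudogenes could take little from their parents. PDIA3P1 held at most 0.928% of the PDIA3 counts, XBP1P1 at most 0.260% of the XBP1 counts and HSP90B2P at most 0.0891% of the HSP90B1 counts, and HSP90B3P, HSPA5P1 and PDIA3P2 were listed at 0.

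The wider pathway was read from 9 lists with 81 genes, of which 78 were tested. In edgeR 0 of the 78 passed an FDR of 5% and 5 had an unadjusted p under 0.05, against the 8.62% of all genes given above. DESeq2 and limma-voom called 0 of them as well. Of the 78, 31 had a log2 fold change above 0 and 47 below, with a median of -0.03 beside -0.0055 for all genes. CHAC1, CALR3 and DERL3 had at most 15, 4 and 0 counts in any library and were not tested. As with CANX, unmatched entries of shared length held 37.2% to 53.6% of the counts for HYOU1 and 21.5% to 27.3% for P4HB, where another gene shared the same 3 lengths. For ATF6B they held 2.07% to 50.2%, the most in siCT replicate 3, where its matched count was lowest. They added only 16.9 counts there, so ATF6B stayed at 2.52 TPM with both counted, against 12.7 to 14.4 TPM in the other libraries. Counting them with these genes left 0 pathway genes called.

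Among the UPR sensors and proteases 0 of 6 genes passed, 3 on either side of 0, with a median of 0.05. The smallest p belonged to the sensor ATF6, at 120 ± 10.2 CPM in siCT and 108.7 ± 4.85 CPM in siPDCD4 (-0.14 ± 0.09, adjusted p = 0.770 in edgeR). ERN1 and EIF2AK3, which encode IRE1 and PERK and are named here after their values were seen, had log2 fold changes of 0.38 ± 0.25 and -0.21 ± 0.17. ATF6B had a low level in siCT replicate 3, with 16.8 counts against up to 700 elsewhere, and so the widest error of the list (0.39 ± 0.95). Of the PERK branch output 0 of 5 passed, with a median of 0.0100. TRIB3, a pseudokinase induced by ATF4, was at 36.7 ± 1.05 and 43.0 ± 6.46 CPM (0.23 ± 0.12, adjusted p = 0.689). ATF4 and the stress factor DDIT3, also named after their values were seen, had log2 fold changes of 0.06 ± 0.08 and 0.0100 ± 0.21.

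Co-chaperones and nucleotide exchange factors had 0 of 10 genes past the test, 3 above and 7 below 0, with a median of -0.03. SIL1, a nucleotide exchange factor of HSPA5, stood at 55.7, 47.8 and 48.5 CPM in siCT and at 38.8, 41.0 and 45.8 CPM in siPDCD4 (-0.28 ± 0.11, adjusted p = 0.479 in edgeR). In the list of oxidative folding and other PDI family genes 0 of 12 passed, 3 above and 9 below 0, with a median of -0.05. Its member TXNDC5, a disulphide isomerase, had the smallest p of the 78 genes. TXNDC5 stood at 294, 294 and 242 CPM in siCT and at 230, 226 and 188 CPM in siPDCD4, so the groups did not overlap. The log2 fold change was -0.37 ± 0.11 or 0.775-fold (adjusted p = 0.264 in edgeR).

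Glycan trimming and lectin cycle genes had 0 of 6 past the test with a median of 0.0035, and UGGT1, the folding sensor of glycoproteins, came first with -0.10 ± 0.10 (adjusted p = 0.890 in edgeR). Of the ER prolyl isomerases 0 of 7 passed, with a median of -0.04 and FKBP14 at -0.22 ± 0.11 (adjusted p = 0.644). In ER-associated degradation 0 of 17 passed, 7 above and 10 below 0, with a median of -0.01. VCP, the ATPase that pulls proteins out of the membrane, stood at 586, 563 and 501 CPM in siCT and at 495, 472 and 432 CPM in siPDCD4, which did not overlap (-0.24 ± 0.09, adjusted p = 0.469). Translocation and signal peptidase genes had 0 of 12 past the test, with a median of -0.03. SPCS3, a subunit of the signal peptidase, was the one gene of its list with every siPDCD4 library above siCT, at 202 ± 10.3 and 241 ± 22.7 CPM (0.26 ± 0.09, adjusted p = 0.396). KDEL retrieval receptors, which return chaperones from the Golgi, had 0 of 3 past the test, with KDELR3 at 0.33 ± 0.26 (adjusted p = 0.871).

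**Figure D5:**
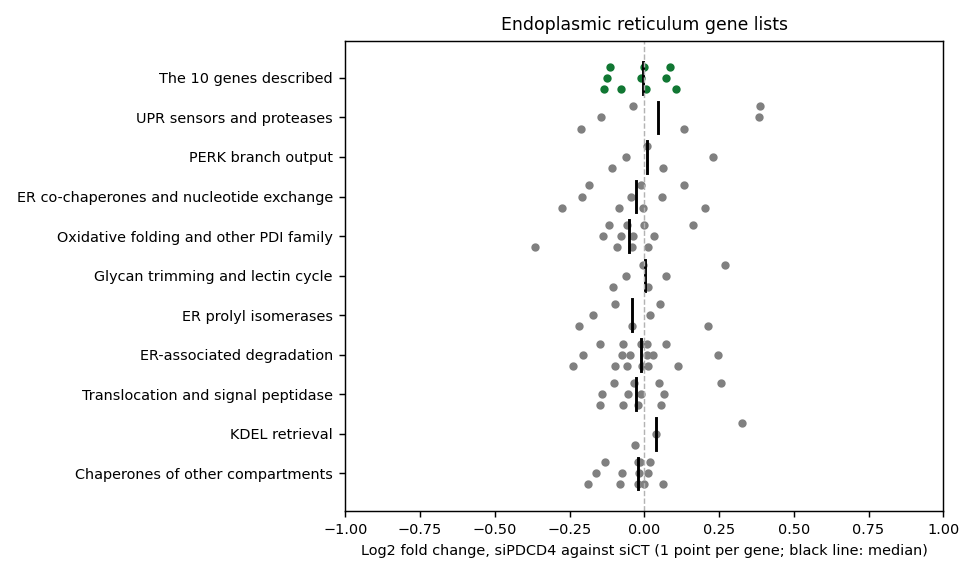
Each point is a tested gene, placed by its log2 fold change from siCT to siPDCD4 (x axis) in the row of its list (y axis; points are spread within a row), with the 10 genes described in green and the median of each list as a black line. The medians lie between -0.05 and 0.05, and TXNDC5 stands lowest at -0.37.

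Chaperones of the cytosol and mitochondria served as a comparison. Of 15 such genes 13 were tested, while HSPA1A and HSPA1B were listed at 0 in all libraries. That holds for entries matched by identifier, so it does not show that these genes were silent. The search for unmatched entries needed at least 3 shared lengths of at least 1000 bases and would miss genes with fewer such transcripts. In edgeR 0 of the 13 passed an FDR of 5% and 0 had an unadjusted p under 0.05, with 3 log2 fold changes above 0 and 10 below and a median of -0.02. The smallest p was that of BAG3, a co-chaperone of the HSP70 family, at 60.3 ± 4.04 CPM in siCT and 52.9 ± 4.02 CPM in siPDCD4 (-0.19 ± 0.10, SE, adjusted p = 0.701). DESeq2 and limma-voom also called 0 of these 13 genes.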

How the data were processed

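Total RNA of 3 siPDCD4 and 3 siCT libraries of MCF10A cells was analysed. The authors ran Salmon (version not given in the sources used here) against GRCh38 and deposited estimated counts and TPM per transcript. Transcripts were matched by identifier to GENCODE release 44 (181244 of 194142, the other 12898 holding 5.47% to 6.21% of the counts) and summed per gene. Sums were rounded and tested with edgeR 4.0.16 (quasi-likelihood, robust, TMM, filterByExpr, length offset), adjusted by Benjamini-Hochberg over 13047 genes. The SE is the log2 fold change over the square root of F, and 95% intervals use the moderated degrees of freedom. DESeq2 1.42.0, limma-voom 3.58.1, RLE factors, other filters and offsets, a replicate block and leaving out each library were alternatives. On simulated data for this comparison (13089 genes tested), edgeR called 99% of the genes given a log2 change of 1 and 100% of those given 2, with 8 false among 207 calls. That simulation gave all genes the same biological variation and changed only genes above a minimum count. Changes as small as those of the members were not simulated, so it does not show how well these would be found. Samples were grouped by title. The members and lists were chosen with earlier results of these data known. Named were PDCD4, the members and their pseudogenes, the 3 genes of nearest profile, and per list each gene past the threshold, or else that of smallest p. An immune marker is not reported here.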

Additional observations from a re-analysis of the deposited data

How the results depend on the processing

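No member passed an FDR of 5% in any of the 14 alternatives, where the lowest adjusted p was 0.528, and their median log2 fold change stayed between -0.03 and 0.0021. The count over all genes, 56, was 181 with DESeq2, 128 without the length offset, 108 without a filter on low counts, 102 with the replicate block and between 17 and 40 with a library left out. Same-numbered libraries correlated by only 0.072 to 0.183 in their deviations. The siPDCD4 replicates 2 and 3 correlated best with the siCT library of their own number (0.117 and 0.183). But siPDCD4 replicate 1 correlated best with siCT replicate 2 (0.102), so the numbers were not taken as pairs. The replicate block called 1 pathway gene in place of 0, TXNDC5 (-0.37, adjusted p = 0.0457, against up to 0.644 in the other alternatives). Direction turned in members near 0. HSPA5 went to -0.0092 without the length offset. PDIA3 went to 0.0052 with RLE factors, 0.0050 with DESeq2, 0.00086 with limma-voom, 0.0010 with the replicate block, 0.0031 with pseudogene counts added and 2.1e-06 with transcripts of shared length. With a library left out, HSPA5 ran from -0.039 to 0.054, CANX from -0.25 to 0.095 (-0.11 to -0.011 with transcripts of shared length), PDIA3 from -0.042 to 0.026, PDIA6 from -0.072 to 0.054, DNAJB9 from -0.034 to 0.21 and HERPUD1 from -0.021 to 0.17. The XBP1 share difference ran from 7.36 to 23.8 percentage points with a library left out, and was 17.5 on TPM and 18.4 over coding transcripts, with the same permutation p of 0.2 in both. As a replicate block, the sign-flip test within numbers gave 0.5, with 0.25 the smallest it allows. The cause of these shifts was not tested. With 3 libraries a group, changes of the members inside their 95% intervals are not excluded.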
